A study of Mus musculus with 6 samples.

Results

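The Hox genes are the 39 rows whose symbol is Hox followed by a cluster letter and a number, out of 48395 rows in the deposited count tables. Cluster A held 11 of them, cluster B 10, cluster C 9 and cluster D 9, and each of the 39 symbols occurred in all 6 libraries. The members were chosen by name alone. RNA had been sequenced from LSK cells, mouse bone marrow cells that lack lineage markers and carry Sca-1 and c-Kit on their surface, a fraction that contains stem cells and early progenitors. The comparison addressed what introducing Hmga2, an architectural factor of chromatin, does to expression in Jak2-mutant LSK cells.

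The 6 libraries formed 2 groups of 3, described in the labels as biological replicates. The Jak2VF/+ Hmga2 group came from marrow of mice with the genotype Mx1Cre; Jak2V617F/+ that was transduced with a lentivirus expressing Hmga2, and the Jak2VF/+ vector group came from marrow of the same genotype transduced with the vector alone. Both groups thus carried the heterozygous activating Jak2 allele, and no library was from marrow with wild-type Jak2. In both groups the donors had been primed with 5-fluorouracil, the recipients were lethally irradiated C57BL/6 mice, and LSK cells were sorted 32 weeks after transplantation. Mx1Cre drives recombination from an interferon-inducible promoter. The sources used here do not give the ages of the mice, the promoter behind Hmga2 or any selection of transduced cells.

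Hmga2, the introduced gene, had 2.64, 6.62 and 5.91 CPM (counts per 1000000, scaled by TMM factors) in the libraries labelled Hmga2 and 5.97, 5.01 and 7.04 CPM in the vector libraries. The ranges overlapped, and the log2 fold change, labelled Hmga2 over vector, was -0.25 with a standard error of 0.35 (adjusted p = 0.934, edgeR quasi-likelihood test with Benjamini-Hochberg adjustment). The sources used here do not say if reads of the introduced sequence fell in this row, so the groups are called by their labels.

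Libraries held 24818011 to 35471806 counts each, and 16739 genes were abundant enough to be tested. The LSK markers Kit, at 248 to 375 CPM, and Cd34, at 526 to 795 CPM, were high in every library, whereas Ly6a, the gene of Sca-1, ranged from 19.3 to 59.1 CPM and was lowest in vector replicate 2. Igha, a plasma cell gene, exceeded 1000 CPM in labelled Hmga2 replicate 2 and in vector replicates 1 and 3. The sum of 8 granulocyte progenitor markers was 2976 to 4851 CPM in the libraries labelled Hmga2 and 4371 to 9290 CPM in the vector libraries, highest in vector replicate 2. Whether the granulocyte progenitor transcripts came from progenitors within the LSK fraction or from other cells was not measured. In bulk libraries of this kind, fewer cells of a type and less RNA per cell cannot be told apart.

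Hox genes encode homeodomain transcription factors and lie in 4 clusters, in which the genes are transcribed from one strand and numbered from the 3′ to the 5′ end. Genes of the same number in different clusters are paralogs. Trithorax-type activators such as Kmt2a keep the clusters active, Polycomb complexes keep them silent, and Meis and Pbx proteins bind DNA together with Hox proteins. In blood formation the A and B clusters are the best known: Hoxa9 sustains stem and progenitor cell growth and is a partner of Meis1 in leukaemia, Hoxb4 expands stem cells when it is overexpressed, and Hoxb5 is used as a marker of long-term stem cells in the mouse.

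Members were called detected when they had at least 3 counts in all 6 libraries, and expressed when their mean over the 6 libraries was at least 1 RPKM, that is CPM per kilobase of annotated exon. By these measures 16 of the 39 members were detected, 9 in cluster A and 7 in cluster B, and 11 were expressed, 6 in cluster A and 5 in cluster B. None of the 18 members in clusters C and D was detected in all 6 libraries. In all, 7 members had a count of 0 in every library, namely Hoxa11, Hoxb13, Hoxc11, Hoxc13, Hoxd1, Hoxd12 and Hoxd13. At these depths 3 counts in a library correspond to 0.0846 to 0.121 CPM by library totals, without TMM scaling. This is the limit that a count of 0 allows for counting error alone.

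**Figure D1:**
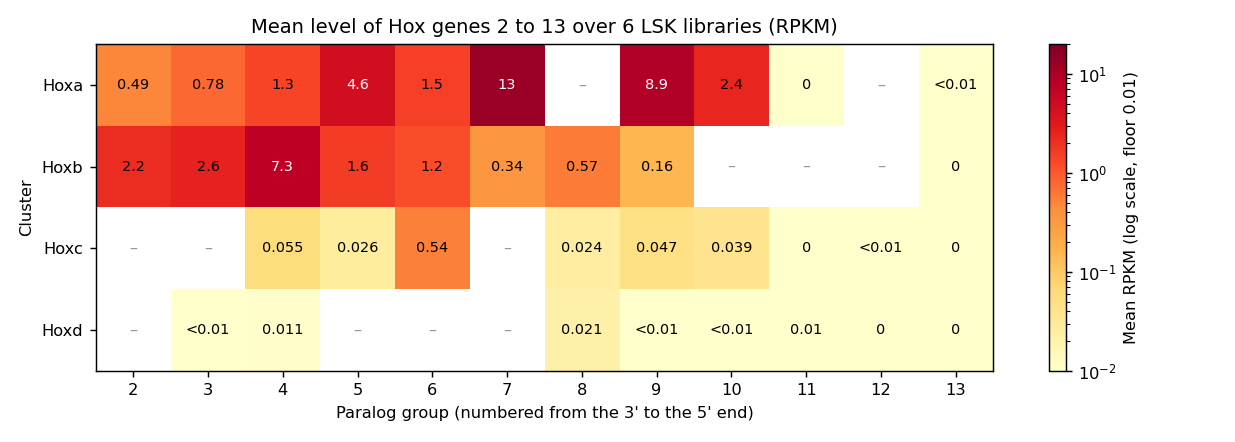
Mean level of the Hox genes numbered 2 to 13 over the 6 libraries, in RPKM on a logarithmic colour scale, with clusters in rows and paralog groups in columns; a dash marks a position with no gene. Levels of 1 RPKM or more lie at Hoxa4 to Hoxa10 and Hoxb2 to Hoxb6, and the rows of clusters C and D stay below 1 RPKM.

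Detected members lay mostly in the anterior and central parts of clusters A and B. Of the 12 anterior members, those numbered 1 to 4, 7 were detected and 4 expressed. Of the 11 central members, numbered 5 to 8, 7 were detected and 5 expressed. Of the 16 posterior members, numbered 9 to 13, 2 were detected, and these were the neighbours Hoxa9 and Hoxa10, both of them expressed. Next to them on the 5′ side, Hoxa11 had no reads in any library and Hoxa13 had 2 counts, both in labelled Hmga2 replicate 3.

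A promoter window of each of the 3 members with the highest levels, and of the silent gene that adjoins Hoxa10, is given here. The sequence can so be read beside that of a gene with no reads. Each is the 300-base window from 250 bases before to 50 bases after a RefSeq transcript start on GRCm38.p6, the assembly of mm10, read 5′ to 3′ along the gene, and capitals mark CpG dinucleotides. The windows lie at chr6:52227321-52227620 (minus strand, Hoxa9), chr6:52218524-52218823 (minus strand, Hoxa7), chr11:96318017-96318316 (plus strand, Hoxb4) and chr6:52245761-52246060 (minus strand, Hoxa11). The windows of Hoxa9 and Hoxa7 lie inside their annotated genes, whose 5′ ends are at 52231089 and 52221854. Which start is used in these cells was not measured.
Hoxa9: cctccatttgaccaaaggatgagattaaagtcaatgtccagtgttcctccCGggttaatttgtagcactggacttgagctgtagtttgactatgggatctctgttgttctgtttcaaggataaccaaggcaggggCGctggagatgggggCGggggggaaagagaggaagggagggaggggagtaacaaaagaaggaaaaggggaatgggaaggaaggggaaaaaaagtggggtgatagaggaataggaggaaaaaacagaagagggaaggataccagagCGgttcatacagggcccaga
Hoxa7: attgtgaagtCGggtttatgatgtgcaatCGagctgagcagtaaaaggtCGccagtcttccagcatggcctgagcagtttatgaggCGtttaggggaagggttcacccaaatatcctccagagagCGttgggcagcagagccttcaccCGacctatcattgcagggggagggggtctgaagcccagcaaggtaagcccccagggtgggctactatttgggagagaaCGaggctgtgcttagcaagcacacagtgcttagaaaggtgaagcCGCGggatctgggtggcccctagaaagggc
Hoxb4: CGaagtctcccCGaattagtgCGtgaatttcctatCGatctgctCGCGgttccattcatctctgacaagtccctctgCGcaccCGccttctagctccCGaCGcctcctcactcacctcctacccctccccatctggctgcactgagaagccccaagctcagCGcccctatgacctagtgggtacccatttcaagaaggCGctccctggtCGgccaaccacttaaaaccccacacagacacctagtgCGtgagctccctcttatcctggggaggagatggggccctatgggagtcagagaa
Hoxa11: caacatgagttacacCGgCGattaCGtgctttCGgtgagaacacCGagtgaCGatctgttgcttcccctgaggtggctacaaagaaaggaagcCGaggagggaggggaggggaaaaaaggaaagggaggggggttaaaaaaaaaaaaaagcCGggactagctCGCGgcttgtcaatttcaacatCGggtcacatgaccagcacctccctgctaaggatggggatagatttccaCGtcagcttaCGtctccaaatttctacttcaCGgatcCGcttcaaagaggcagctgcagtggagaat

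The Hoxa9 window held 4 CpG dinucleotides and 49.7% G or C, the Hoxa7 window 9 and 55.7%, the Hoxb4 window 14 and 58.0%, and the window of the silent Hoxa11 15 and 51.0%. The median over 32851 promoters of the same length was 7 CpG dinucleotides and 52.7% G or C. These 4 windows do not stand for the family: the median was 14 CpG dinucleotides over 7 windows of expressed members and 15 over 17 windows of the other members, and the expressed Hoxa5 had 29 and Hoxa6 26. The CCAAT box, letters CCAAT, was searched on both strands and occurred in 62.5% of the 24 Hox windows at hand and in 37.4% of the 32851 promoters. The E-box form CACGTG occurred in 20.8% of the Hox windows and in 7.15% of all promoters. A Hox and Pbx type motif, TGATNNAT, occurred in 16.7% of the Hox windows and in 8.85% of all promoters. In the 7 windows of expressed members the shares were 42.9% for CCAAT and 0% for CACGTG and for TGATNNAT. In the 17 windows of the other members they were 70.6%, 29.4% and 23.5%, in that order. None of these motifs was found in the 4 windows shown, and no test of these shares was made. The Hox windows belong to 22 of the 39 members.

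Hoxa7 had the highest level per length of all members, with a mean of 13.2 RPKM and a range of 11.3 to 14.6 RPKM over the 6 libraries. Hoxa9 followed at 8.92 RPKM (8.41 to 9.51), Hoxb4 at 7.30 RPKM (6.56 to 8.04), Hoxa5 at 4.65 RPKM (3.81 to 6.06) and Hoxb3 at 2.57 RPKM (2.14 to 3.03). The ranges of these 5 genes did not overlap between neighbours, so their order was the same in all 6 libraries. Hoxa10 at 2.42 RPKM, with a range of 1.26 to 3.89 RPKM, lay below Hoxb3 in 3 of 6 libraries and above it in the other 3. Hoxa10, Hoxb2 at 2.15 RPKM, Hoxb5 at 1.60 RPKM, Hoxa6 at 1.48 RPKM, Hoxa4 at 1.34 RPKM and Hoxb6 at 1.19 RPKM had overlapping ranges, and their order was not the same in every library. Hoxa3 at 0.784 RPKM, Hoxb8 at 0.575 RPKM and Hoxc6 at 0.545 RPKM lay just under the limit of 1 RPKM. With the longest annotated transcript as the length, Hoxa3 came to 1.82 RPKM and 12 members were expressed, while Hoxa7, Hoxa9, Hoxb4, Hoxa5 and Hoxb3 kept their order among themselves in all 6 libraries.

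A few genes made up most of the Hox RNA per length. Hoxa7 and Hoxa9 held 44.1% of the summed RPKM of the 39 members on average, with 38.7% to 48.4% in single libraries, and with Hoxb4 the share was 58.7% (51.0% to 62.0%). Cluster A held 61.7% to 72.2% and cluster B 25.5% to 36.2% of the sum in single libraries. Among all tested genes with an annotated length, Hoxa7 stood at percentile 70.2 by mean RPKM, Hoxa9 at 61.3, Hoxb4 at 56.5 and Hoxa5 at 46.5.

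Paralogs in clusters A and B showed opposite balances along the clusters. Hoxb2, Hoxb3 and Hoxb4 each exceeded their A paralog in 6 of 6 libraries, by 4.40-fold, 3.28-fold and 5.44-fold in mean RPKM. From number 5 on the A gene was the higher: Hoxa5 exceeded Hoxb5 by 2.91-fold, Hoxa7 exceeded Hoxb7 by 38.5-fold and Hoxa9 exceeded Hoxb9 by 57.0-fold, each in 6 of 6 libraries. Hoxa6 and Hoxb6 were close, with a ratio of 1.24 and the A gene higher in 5 of 6 libraries. These counts of libraries were unchanged with the longest transcript as the length, but the folds depended on the length. By the longest transcript Hoxa3 had 1.82 RPKM and Hoxb3 3.43 RPKM, which are closer than by the union of exons. Hoxa9 had 15.4 RPKM and Hoxb9 0.156 RPKM, which are further apart. Hoxb2 and Hoxb3 also share 27.3% and 52.9% of their exons with the other strand.

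**Figure D2:**
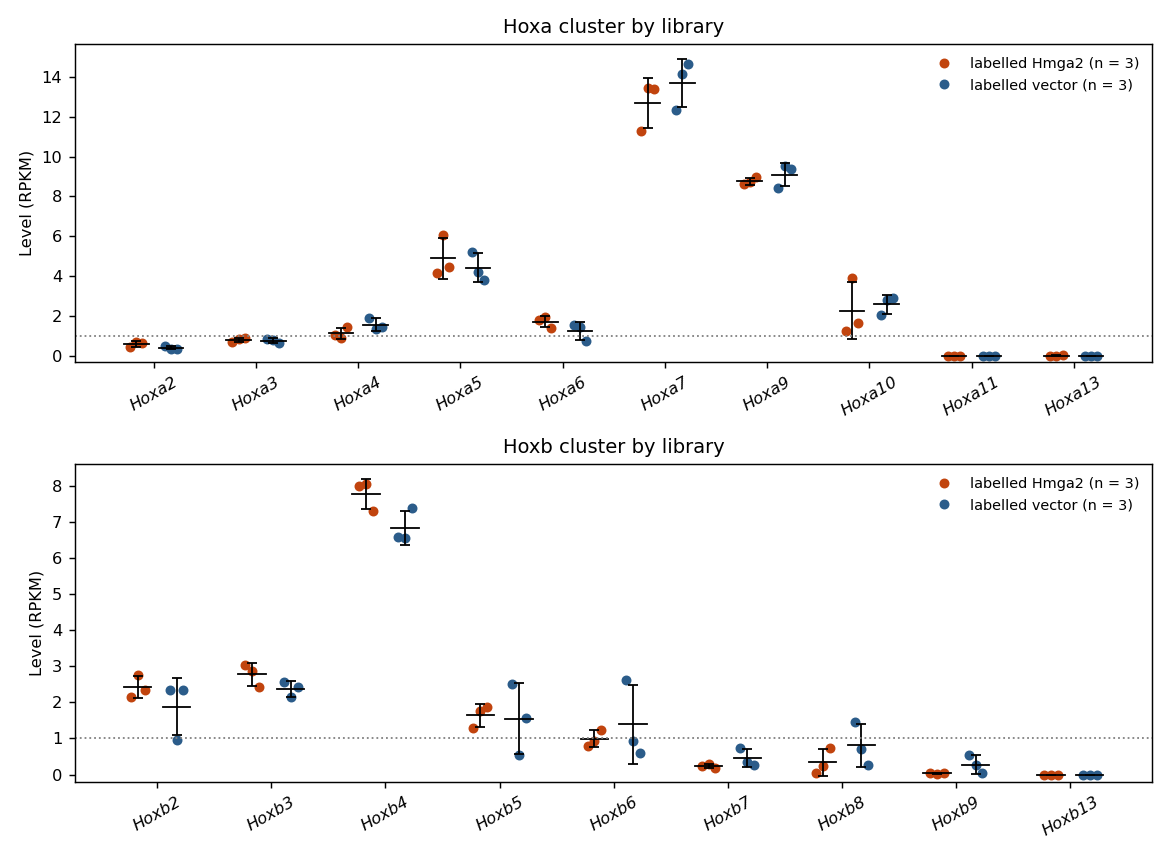
Level in RPKM of each gene of clusters A (top) and B (bottom), numbered 2 to 13 and ordered from the 3′ to the 5′ end; points are single libraries, labelled Hmga2 left of vector, with the mean and SD of 3 libraries in black, and the dotted line marks 1 RPKM. Levels peak at Hoxa7 and Hoxa9 in cluster A and at Hoxb4 in cluster B, with both groups overlapping there.

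No Hox gene passed the test between the libraries labelled Hmga2 and the vector libraries. Of the 39 members 17 passed the count filter, 9 in cluster A, 7 in cluster B and Hoxc6, and edgeR called 0 of them at an adjusted p below 0.05, where it called 0% of all 16739 genes tested. DESeq2 called 0 of the members as well, where it called 71 genes, or 0.425% of 16719. At an unadjusted p below 0.05 edgeR counted 1 member, where 935 genes or 5.59% of those tested were counted. The median log2 fold change of the 17 was -0.05, beside 0.0016 over all genes tested, and 8 of the 17 were positive, beside 50.4% of all genes. In 1 member every library labelled Hmga2 was below every vector library, as in 5.87% of all genes tested, and in 0 members was every one above, as in 5.29% of all genes tested.

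Hoxa2, Hoxa3 and Hoxa4 overlapped between the groups. Hoxa2, a gene of hindbrain and branchial arch identity, had 0.732, 1.24 and 1.16 CPM in the libraries labelled Hmga2 and 0.848, 0.636 and 0.594 CPM in the vector libraries (log2 fold change 0.57, standard error 0.33). Hoxa3, needed for the thymus and parathyroid, had 4.13, 5.12 and 5.28 CPM in the libraries labelled Hmga2 and 5.12, 4.76 and 3.87 CPM in the vector libraries, a log2 fold change of 0.08 that was -0.03 without vector replicate 3. Hoxa4 had 1.67, 1.43 and 2.27 CPM in the libraries labelled Hmga2 and 3.05, 2.11 and 2.30 CPM in the vector libraries (log2 fold change -0.48, standard error 0.27). Of the exons of Hoxa3 25.4% and of Hoxa4 16.0% are shared with genes on the other strand.

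Hoxa5, a repressor of erythroid differentiation in human progenitors, had 7.79, 11.4 and 8.33 CPM in the libraries labelled Hmga2 and 9.79, 7.87 and 7.15 CPM in the vector libraries. Its groups overlapped, and the log2 fold change of 0.15 (standard error 0.21) was -0.04 without labelled Hmga2 replicate 2. Hoxa6 had 1.58, 1.69 and 1.22 CPM in the libraries labelled Hmga2 and 1.35, 1.27 and 0.628 CPM in the vector libraries (log2 fold change 0.46, standard error 0.35).

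Hoxa9, Hoxb4 and Hoxa7, the 3 members with the highest levels, had the smallest ratios of highest to lowest library among the 17 tested. Hoxa9 had 48.1, 48.6 and 49.96 CPM in the libraries labelled Hmga2 and 46.9, 53.1 and 52.2 CPM in the vector libraries. The highest of these 6 values was 1.13 times the lowest, against a median of 1.45 over all tested genes. The log2 fold change of Hoxa9 was -0.05 (standard error 0.08, 95% interval -0.25 to 0.14). Most members varied more than that: the median ratio of the 17 tested members was 2.69, and 12 of them lay above the median of all tested genes. Hoxa7, next to Hoxa9 in the cluster, had 32.4, 38.6 and 38.5 CPM in the libraries labelled Hmga2 and 35.5, 40.7 and 42.0 CPM in the vector libraries (log2 fold change -0.11, 95% interval -0.37 to 0.15). Both intervals exclude a change of 1 on the log2 scale in either direction. Of the exons of Hoxa7 20.4% are shared with a gene on the other strand, and Hoxaas3, an antisense transcript that overlaps it, had 0.865, 0.950 and 1.16 CPM in the libraries labelled Hmga2 and 1.11, 0.863 and 0.968 CPM in the vector libraries.

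Hoxa10, which is most active in stem cells and early myeloid progenitors, varied more than its neighbour. It had 4.12, 12.7 and 5.33 CPM in the libraries labelled Hmga2 and 6.68, 9.22 and 9.41 CPM in the vector libraries. Labelled Hmga2 replicate 2 was the highest of the 6 libraries and the other 2 of that label were the lowest. The log2 fold change was -0.19 with a standard error of 0.42. It was 0.10 without labelled Hmga2 replicate 1 and -0.84 without labelled Hmga2 replicate 2. It was 0.59 when the fit included a term for Y-linked genes. These were high in labelled Hmga2 replicates 1 and 3 and low in the other 4 libraries. That fit thus set labelled Hmga2 replicate 2 alone against the vector libraries. The part of the Y-linked split in the values of Hoxa10 was not tested further.

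In cluster B the 3′ genes overlapped between the groups. Hoxb4 had 20.5, 20.6 and 18.7 CPM in the libraries labelled Hmga2 and 16.9, 16.8 and 18.9 CPM in the vector libraries, so that vector replicate 3 lay above labelled Hmga2 replicate 3. Its log2 fold change was 0.19 (standard error 0.12, 95% interval -0.09 to 0.46). Hoxb3, which acts together with Hoxb4 in stem cell regeneration, had 12.9, 12.2 and 10.3 CPM in the libraries labelled Hmga2 and 10.9, 9.09 and 10.3 CPM in the vector libraries (log2 fold change 0.23, standard error 0.16). Hoxb2 had 7.52, 9.64 and 8.16 CPM in the libraries labelled Hmga2 and 8.12, 3.38 and 8.22 CPM in the vector libraries (log2 fold change 0.36, standard error 0.34), with vector replicate 2 alone far below the rest.

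RNA annotated on the opposite strand was abundant there too. Hoxb3os, which is annotated antisense to Hoxb3 and Hoxb2, had 13.4, 17.8 and 13.7 CPM in the libraries labelled Hmga2 and 15.3, 6.99 and 17.6 CPM in the vector libraries. Its lowest library was vector replicate 2, as for Hoxb2, Hoxb3 and Hoxb4. Of the exons of Hoxb3 52.9% and of Hoxb2 27.3% are shared with the other strand, so without a stated strand setting the reads of these genes and of the antisense RNA cannot be told apart. Per length Hoxb3os had a mean of 3.36 RPKM, beside 2.57 RPKM for Hoxb3 and 2.15 RPKM for Hoxb2.

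Hoxb5, Hoxb6 and Hoxb7 spread more among the vector libraries than among the libraries labelled Hmga2. Hoxb5 had 3.59, 4.94 and 5.21 CPM in the libraries labelled Hmga2 and 7.02, 1.54 and 4.39 CPM in the vector libraries. Vector replicate 1 was the highest and vector replicate 2 the lowest of the 6 libraries, and the log2 fold change of 0.08 (standard error 0.49) was -0.32 without vector replicate 2 and -0.02 without labelled Hmga2 replicate 3. Hoxb6 had 1.55, 1.85 and 2.45 CPM in the libraries labelled Hmga2 and 5.16, 1.84 and 1.17 CPM in the vector libraries, a log2 fold change of -0.49 (standard error 0.54) that was 0.37 without vector replicate 1. Hoxb7 had 0.367, 0.455 and 0.262 CPM in the libraries labelled Hmga2 and 1.13, 0.538 and 0.418 CPM in the vector libraries (log2 fold change -0.96, standard error 0.49).

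Hoxb8, whose forced expression blocks myeloid differentiation in mouse cells, had the widest range of the detected members. It had 0.0847, 0.617 and 1.95 CPM in the libraries labelled Hmga2 and 3.84, 1.88 and 0.711 CPM in the vector libraries, from 3, 19 and 67 counts in the libraries labelled Hmga2 and 122, 49 and 17 counts in the vector libraries. The highest library had 45.3 times the level of the lowest, and the log2 fold change was -1.28 with a standard error of 0.97. It was -2.63 without labelled Hmga2 replicate 3, -0.74 without labelled Hmga2 replicate 1 and -0.55 without vector replicate 1. Hoxb9, which did not pass the count filter, had 3, 1 and 5 counts in the libraries labelled Hmga2 and 45, 17 and 2 counts in the vector libraries. At the ends of the cluster Hoxb1 had at most 3 counts in a library and Hoxb13 none. Vector replicate 1 was the highest library for Hoxb5, Hoxb6, Hoxb7, Hoxb8 and Hoxb9, and vector replicate 2 was the lowest for 4 of the 7 tested genes of the cluster.

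Stem cell markers differed between the same libraries. Mecom, a transcription factor of long-term stem cells, had 22.2, 21.8 and 31.8 CPM in the libraries labelled Hmga2 and 37.5, 7.99 and 13.8 CPM in the vector libraries, and Procr, a surface receptor of stem cells, had 9.77, 13.9 and 12.8 CPM in the libraries labelled Hmga2 and 20.9, 7.11 and 8.83 CPM in the vector libraries. For both genes vector replicate 1 was the highest and vector replicate 2 the lowest, as for Hoxb5. Both were picked out after their values were seen, and not all markers of the list shared this order. Cd34 was lowest in vector replicate 1, at 526 CPM. Kit was highest in labelled Hmga2 replicate 1, at 375 CPM, and lowest in vector replicate 3, at 248 CPM. Ly6a was highest in vector replicate 3, at 59.1 CPM. The sum of the 12 LSK and stem cell markers was 1600 to 1663 CPM in the libraries labelled Hmga2 and 1295 to 1496 CPM in the vector libraries, lowest in vector replicate 2, and 0 of the 12 were at 0 in every library. Their part in the levels of the B genes was not tested.

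**Figure D3:**
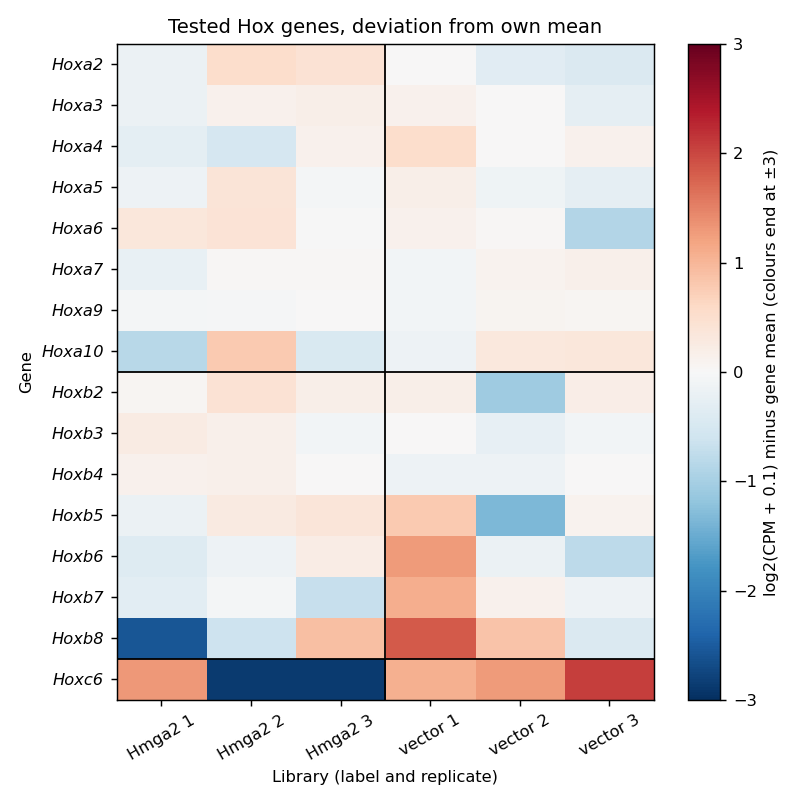
Deviation of each of 16 tested Hox genes from its own mean, as log2(CPM + 0.1), in the 3 libraries labelled Hmga2 (left) and the 3 vector libraries (right); colours end at a deviation of 3 in either direction. Hoxa3, Hoxa7, Hoxa9, Hoxb3 and Hoxb4 are pale throughout, Hoxb5 to Hoxb8 are highest in vector replicate 1, and Hoxc6 is dark blue where it had no reads.

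Cluster C was near silent apart from Hoxc6. Hoxc6 had 61, 0 and 0 counts in the libraries labelled Hmga2 and 46, 44 and 72 counts in the vector libraries, or 1.72, 0 and 0 CPM in the libraries labelled Hmga2 and 1.45, 1.69 and 3.01 CPM in the vector libraries. It was at about the same level in 1 library labelled Hmga2 as in the vector libraries and had no reads in the other 2. By library totals, a count of 0 allows up to 0.0986 CPM in labelled Hmga2 replicate 2 and up to 0.0888 CPM in labelled Hmga2 replicate 3. Its fold change, -1.81 on the log2 scale, was uncertain (standard error 1.38, 95% interval -5.06 to 1.45), and Hoxc6 passed the count filter through the libraries in which it was present.

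The other 8 genes of cluster C had at most 12 counts in any library. Hoxc4 had 1, 0 and 0 counts in the libraries labelled Hmga2 and 12, 7 and 4 counts in the vector libraries, and Hoxc9 had 2, 1 and 2 counts in the libraries labelled Hmga2 and 3, 4 and 7 counts in the vector libraries. Both were too low to be tested, and were picked out after their values were seen. The highest count was 9 for Hoxc10, 6 for Hoxc8, 4 for Hoxc5 and 1 for Hoxc12. Summed over the cluster, the level was 2.03, 0.130 and 0.0873 CPM in the libraries labelled Hmga2 and 2.39, 2.497 and 3.64 CPM in the vector libraries, a log2 ratio of the means of -1.92 that was -4.71 without labelled Hmga2 replicate 1.

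Cluster D had 3, 0 and 3 counts in all in the libraries labelled Hmga2 and 12.2, 7 and 4 counts in the vector libraries. No gene of the cluster had more than 5 counts in a library. Hoxd8 had 0 counts in each library labelled Hmga2 and 5, 4 and 1 counts in the vector libraries; the highest count was 3 for Hoxd4, Hoxd9 and Hoxd11 and 1 for Hoxd3 and Hoxd10. Hoxd3 and Hoxd4 share 62.3% and 52.3% of their annotated exons with other genes on the same strand, so their reads could be divided between them by the counting.

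Hox genes are also active along the spinal cord, and markers of neural cells were measured in the same libraries. Mobp, a myelin gene, had 0.876, 4.68 and 0.757 CPM in the libraries labelled Hmga2 and 38.6, 46.7 and 4.98 CPM in the vector libraries, and Gfap, an astrocyte gene, had 1.24, 1.56 and 0.728 CPM in the libraries labelled Hmga2 and 11.6, 9.56 and 3.77 CPM in the vector libraries. The sum of 5 neural markers, most of it Mbp, was 111 to 143 CPM in the libraries labelled Hmga2 and 119 to 377 CPM in the vector libraries, and 0 of the 5 were at 0 in every library. Mbp alone had 118, 132 and 107 CPM in the libraries labelled Hmga2 and 266, 312 and 108 CPM in the vector libraries. The sum thus mostly shows this gene, and which cells its reads came from was not measured. Of the 4 markers tested, 4 had a negative log2 fold change, 0 were called by edgeR and 1, Gfap, was called by DESeq2 (adjusted p = 7.49e-06). Over all genes tested edgeR called 0% and DESeq2 0.425%. Vector replicates 1 and 2, with the most Mobp, also had the most reads of Hoxb9, Hoxc4 and Hoxd8. These genes were picked out after their values were seen. Other genes of clusters C and D differed: by CPM, Hoxc5, Hoxc6, Hoxc9 and Hoxd4 were highest in vector replicate 3. Hoxd11 was highest in labelled Hmga2 replicate 1, where Hoxc6 was present too. The part of the neural transcripts in the Hox values was not tested.

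The summed levels of the 2 active clusters differed between the groups by less than the spread between libraries. Cluster A came to 101, 121 and 112 CPM in the libraries labelled Hmga2 and 110, 121 and 119 CPM in the vector libraries, that is 111 ± 10.2 CPM in the libraries labelled Hmga2 and 117 ± 5.93 CPM in the vector libraries (SD, n = 3 each). Cluster B came to 46.6, 50.4 and 47.2 CPM in the libraries labelled Hmga2 and 54.6, 35.8 and 44.2 CPM in the vector libraries, that is 48.1 ± 2.03 CPM in the libraries labelled Hmga2 and 44.8 ± 9.42 CPM in the vector libraries (SD, n = 3 each). The log2 ratio of the means was -0.07 for cluster A and 0.10 for cluster B, and leaving out labelled Hmga2 replicate 1 moved the first to 0.00017 and leaving out vector replicate 2 moved the other to -0.04.

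**Figure D4:**
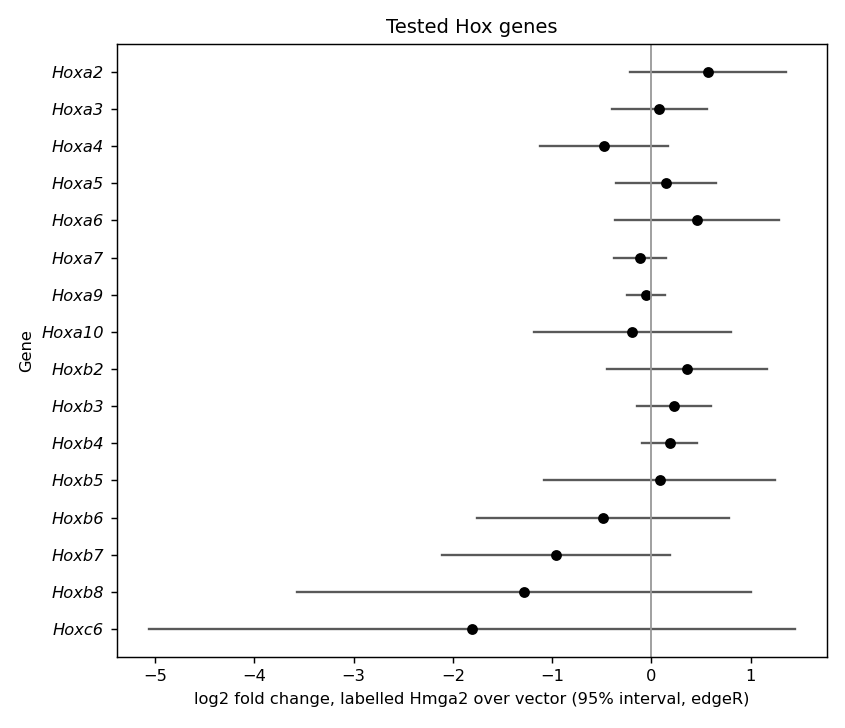
Log2 fold change of 16 tested Hox genes, labelled Hmga2 over vector, with 95% intervals from edgeR, ordered by cluster and number. The intervals of all 16 include 0 and are narrowest for Hoxa9, Hoxa7 and Hoxb4.

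Rows inside the spans of the clusters that are not Hox genes numbered 46, and 5 of them reached a mean of 0.5 CPM: Hotairm1, Hoxaas3, Hoxb3os, Hoxb5os and the processed pseudogene Gm11539. Hotairm1, a noncoding RNA, had 0.424, 0.770 and 0.699 CPM in the libraries labelled Hmga2 and 0.472, 0.589 and 1.21 CPM in the vector libraries, and the groups overlapped. Hoxb5os, antisense to Hoxb5 and Hoxb6, had 2.03, 3.18 and 1.28 CPM in the libraries labelled Hmga2 and 1.23, 2.27 and 2.43 CPM in the vector libraries. Gm11539 lies between Hoxb13 and Hoxb9 and had 19.5, 28.2 and 22.2 CPM in the libraries labelled Hmga2 and 21.5, 22.6 and 27.5 CPM in the vector libraries; its reads may be shared with its parent gene. Of the 46 rows 28 had under 0.001 counts in every library, among them Hotair in cluster C and the rows of the microRNA genes Mir10a, Mir10b, Mir196a-1, Mir196a-2 and Mir196b. The rows of these microRNA genes are 68 to 110 bases long. Whether these libraries capture RNA that short was not tested, so the rows give no level for the microRNAs.

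The nearest protein-coding genes on either side of the clusters ranged from silent to abundant. Cluster C, with at most 3.64 CPM in all, lies between Calcoco1 at a mean of 7.23 RPKM and Smug1 at 2.75 RPKM, with the heterochromatin protein gene Cbx5 at 33.1 RPKM beyond. Cluster D lies between the homeobox gene Evx2, with no reads in any library, and Mtx2 at 9.27 RPKM, and Hnrnpa3 beyond it stood at 139 RPKM. Beside the active cluster A, Evx1 on the 5′ side had no reads in any library, and Skap2 on the 3′ side stood at 9.84 RPKM; Hibadh beyond Evx1 stood at 7.78 RPKM and Snx10 beyond Skap2 at 7.45 RPKM. Beside cluster B, Ttll6 had no reads in any library and Skap1 stood at 0.0798 RPKM, with Calcoco2 at 0.0661 RPKM and Snx11 at 6.74 RPKM as the next genes outward. Atp5g2, beyond Calcoco1, stood at 117 RPKM, and Lnpk, beyond Evx2, was not matched to a row by its symbol.

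No gene of the Hox partner families passed the test, and their levels ranged from abundant to near 0. Of 9 genes of the Meis, Pbx and Pknox families, 7 were tested, 0 were called by either tool and 6 had a positive log2 fold change. Over all genes tested edgeR called 0% and DESeq2 0.425%, and 50.4% had a positive log2 fold change. Meis1, which binds DNA together with Hoxa9, had 134.2, 173 and 151 CPM in the libraries labelled Hmga2 and 134.1, 87.5 and 112 CPM in the vector libraries. The groups did not overlap, by the margin between labelled Hmga2 replicate 1 and vector replicate 1. The log2 fold change of Meis1 was 0.45 with a standard error of 0.17 (adjusted p = 0.855, edgeR). Of the 7 tested, 2, Meis1 and Pknox1, were wholly above the vector libraries, beside 5.29% of all genes tested. Pbx3 had 12.03, 15.1 and 11.4 CPM in the libraries labelled Hmga2 and 18.5, 10.1 and 9.497 CPM in the vector libraries. Vector replicate 1 was its highest library. Pknox1 had 67.2, 53.4 and 51.8 CPM in the libraries labelled Hmga2 and 48.0, 44.4 and 50.3 CPM in the vector libraries, and Meis3 stayed at or below 1.00 CPM. Meis2, at most 0.115 CPM, and Pknox2, at most 0.0384 CPM, were too low to be tested.

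The activators of the clusters were measured as 20 genes, of which 17 were tested. Of these 0 were called by edgeR or DESeq2, beside 0% and 0.425% of all genes tested. A positive log2 fold change was found in 11, beside 50.4% of all genes tested. Kmt2a, the methyltransferase that maintains Hox transcription, had 175, 136 and 156 CPM in the libraries labelled Hmga2 and 163, 122 and 107 CPM in the vector libraries (log2 fold change 0.25, standard error 0.17). Aff4, a subunit of the elongation complex, had a log2 fold change of 0.30, and Dpy30 and Ash2l, core subunits of the methyltransferase complex, had -0.20 and -0.15. Of the 17 tested, 1, Ash2l, was wholly below the vector libraries, beside 5.87% of all genes tested. Its margin was narrow, 102.309 CPM in labelled Hmga2 replicate 3 against 102.333 CPM in vector replicate 1. Wholly above were 0 of the 17, beside 5.29% of all genes tested. Cdx1, Cdx2 and Cdx4, activators of Hox genes in the embryo, had no reads in any library.

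The repressors and the insulator protein were measured as 15 genes, all tested. Of these 0 were called by edgeR or DESeq2, beside 0% and 0.425% of all genes tested. A positive log2 fold change was found in 13, beside 50.4% of all genes tested. The members with the smallest p-values were Phc1, a Polycomb subunit with 59.8, 72.9 and 61.3 CPM in the libraries labelled Hmga2 and 60.5, 47.6 and 49.95 CPM in the vector libraries, and Ctcf, the insulator protein that divides Hox clusters into domains, with 221, 185 and 193 CPM in the libraries labelled Hmga2 and 188, 178 and 171 CPM in the vector libraries. Asxl1 had a log2 fold change of 0.12 and Rnf2 of 0.23. Of the 15 tested, 1, Asxl1, was wholly above the vector libraries, beside 5.29% of all genes tested. Wholly below were 0 of the 15, beside 5.87% of all genes tested. The median log2 fold change was 0.10 over the repressors and 0.06 over the activators, beside 0.0016 over all genes tested.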

How the data were processed

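Each deposited file held the authors' expected counts (estimated counts) of 1 library by gene symbol; 67.3% to 70.1% of the values above 0 were whole within 1e-06. Partek 3.0, Bowtie2 and the build mm10 are named per the submitters' processing notes; which counter, annotation or strand setting was used is not stated there, so genes that overlap on opposite strands, and similar paralogs, are uncertain. Groups and replicate numbers were taken from the titles. After rounding to whole numbers, the main test was that of edgeR 4.0.16 under R 4.3.3 (genes kept by filterByExpr, TMM scaling, quasi-likelihood F test on group alone, Benjamini-Hochberg adjustment over all genes tested, threshold 0.05), with DESeq2 1.42.0 as the other tool. CPM were scaled by TMM factors, except for the limits of 3 counts, which used library totals. RPKM used the union of exons in GENCODE M21, annotated on the same build, with the longest transcript as an alternative; 97.1% of tested symbols had a length. The steps were tested on simulated counts. Replicates within a group were distinct libraries (chi-square of their counts divided by its degrees of freedom, 23.0 to 52.4). The p-values measure the spread between these libraries, and the limit of 3 counts covers counting error only.

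The members, gene lists, thresholds and tests were chosen with earlier results of these data known. Members that were detected or expressed are named with their values and the others with their highest count, with up to 4 genes of smallest unadjusted p in each other list, Meis1, Pbx3, Kmt2a and Hmga2 in any case, the 2 nearest protein-coding genes on each side of a cluster, and rows inside a cluster at a mean of 0.5 CPM or more. Igha, Kit, Cd34, Ly6a, Mecom and Procr, the values of Hoxb9, Hoxc4, Hoxc9 and Hoxd8 by library, and rows at 0 inside the clusters were chosen after their values were seen. Some genes that this rule takes are withheld and not reported. Alternatives were other size factors, library totals, no count filter, a replicate block, a term for Y-linked genes, a term for libraries with Igha above 1000 CPM, and each library left out in turn.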

Additional observations from a re-analysis of the deposited data

How the results depend on the processing

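No Hox gene was called under any of the 13 alternatives run for the test. Over all genes, edgeR called 0; it called 1 with no count filter and DESeq2 called 71. The median log2 fold change of the tested members, -0.05, was 0.16 with a term for Y-linked genes. That term sets labelled Hmga2 replicate 2 alone against the vector libraries. With each library left out the median ran from -0.087 to 0.16. It was 0.16 without vector replicate 1 and 0.10 without labelled Hmga2 replicate 1. The count of members wholly above the vector libraries, 0, was 1 with library totals and 0 to 3 with a library left out. The count wholly below, 1, was 2 to 3 with a library left out. A group of 2 libraries lies wholly apart more easily than a group of 3. The share of all genes in those settings is not given here, so these counts show no shift of the members. The summed level of cluster C had a log2 ratio of -1.92 and -4.71 to -1.39 with a library left out.

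Of 221 values of single members under alternatives, 214 kept their sign and 7 in 5 members did not. With a library left out, the log2 fold change ran from -0.026 to 0.18 for Hoxa3, from -0.041 to 0.29 for Hoxa5, from -0.84 to 0.10 for Hoxa10, from -0.32 to 0.63 for Hoxb5 and from -0.85 to 0.37 for Hoxb6; for Hoxa10 it was 0.59 with the term for Y-linked genes. The cause of these shifts was not tested. Same-numbered libraries of the 2 groups did not deviate together (correlations -0.205, -0.499 and -0.263), so the numbers were not taken as pairs; with the replicate block edgeR called 0 genes and 0 Hox members, and the median of the tested members was -0.05. At 12 counts or fewer per library for every gene of clusters C and D except Hoxc6, differences there are limited by depth.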
